A study of Mus musculus with 16 samples.

Results

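The CCAAT/enhancer-binding proteins (C/EBPs) form a family of transcription factors. The 6 genes read here carry the family's name and are Cebpa, Cebpb, Cebpd, Cebpe, Cebpg and Cebpz. Cebpz is counted among the members by its name alone. Members were taken as every noncontrol array probe that carries 1 of these gene symbols. This gave 6 probes, 1 for each gene, among 39429 probes with 28631 gene names in all. Their RNA was measured in macrophage-dendritic cell progenitors (MDPs), which keep the potential to form monocytes, macrophages and dendritic cells, and in common dendritic cell progenitors (CDPs), which are further along the dendritic cell path. Both were sorted from the bone marrow of female C57/Bl6 mice, either bearing end-stage PyMT-B6 tumors or age-matched and tumor-free. PyMT-B6 is a mammary tumor line made from the MMTV-PyMT model, in which a mammary tumor virus promoter drives the polyoma middle T antigen, and it was implanted in the mammary fat and grown to 1.5 cm across. Each of the 4 groups (MDPs and CDPs, tumor-free and tumor-bearing) held 4 samples, and per the study's methods each sample pooled a pair of mice. No group carried an engineered allele. Mice were implanted when 7 to 8 weeks old and used when 9 to 12 weeks old, ages that hold for all mice of the study without a stated exception.

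C/EBPs bind DNA as dimers through a basic leucine zipper (bZIP), a positively charged helix that contacts the DNA followed by a coiled coil that holds both partners. In the marrow, C/EBPα opens the granulocyte and monocyte program of early progenitors, C/EBPε drives the later steps of granule formation in neutrophils and eosinophils, and C/EBPβ sustains granulocyte output under infection or cytokine stress. C/EBPδ is an inflammatory member that often accompanies C/EBPβ, C/EBPγ lacks a strong activation domain and pairs with other bZIP factors such as ATF4, and CEBPZ shares the name but is a nucleolar protein of ribosome assembly without the family's zipper.

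Each gene was read by 1 probe of 60 bases, so a change in the use of exons or of transcript ends outside the probe could not be seen. A stretch of 30 bases of each probe is given 5′ to 3′ because it is the sequence that every value below rests on. Capitals mark a polyadenylation signal hexamer, the letters AATAAA or ATTAAA, which stands near the end of many messenger RNAs and was found inside the Cebpb and Cebpe probes.
Cebpa: ttttgttttggttttgctctgattcttgcc
Cebpb: tccgtttcgagcATTAAAgtgaagacattt
Cebpd: gacatttccgacagacttttgtagataaga
Cebpe: attctgtggctgAATAAActgcactgttac
Cebpg: aaattaagttgctgacaaaggaattaagtg
Cebpz: tttgactttgctgggtcatttcaaggacaa

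The array files place the probes on mouse build mm9. The Cebpa probe covers chr7:35906517-35906576 on the plus strand, and the Cebpg probe lies 71.0 kb away at chr7:35835477-35835536 on the minus strand. The Cebpb probe covers chr2:167515828-167515887 (plus), the Cebpd probe chr16:15888459-15888518 (plus) and the Cebpe probe chr14:55329200-55329259 (minus). No position is given in the files for the Cebpz probe. Within their target transcripts the probes start at base 2205 (Cebpa), 1413 (Cebpb), 1080 (Cebpd), 1178 (Cebpe), 606 (Cebpg) and 2896 (Cebpz), and their GC content runs from 35.0% to 45.0%. Exon and UTR borders of this build were not used here.

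The samples were hybridized to 16 one-color (Cy5) Agilent arrays on 4 slides. Replicates of a group correlated at 0.904 to 0.977, and 58.8% to 71.5% of probes were well above background on an array. Levels are given as normalized log2 signal, the log2 intensity minus the 75th percentile of its array, and a difference of 1 is a doubling. A probe was called changed at a Benjamini-Hochberg adjusted p under 0.05 and a fold change above 1.5 in a limma fit of all 27433 probes tested. The markers Flt3, Csf1r, Kit, Cx3cr1 and Il3ra were above background on all 16 arrays, and Kit, whose protein is lower on CDPs than on MDPs, was lower in CDPs by 2.59 log2 units (adjusted p = 3.8e-06, limma). The median change of all tested probes was 0.08 with tumor in CDPs, -0.12 with tumor in MDPs, and 0.02 and 0.19 for CDPs against MDPs without and with tumor, and it lay between -0.004 and 0.027 under quantile normalization. All 5 were lower with tumor in both progenitors, under each scaling and with the slide as a block, with medians of -0.791 in CDPs and -0.125 in MDPs, and Kit was called lower in CDPs (-1.34, adjusted p = 0.00441, limma).

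All 6 C/EBP probes were well above background on all 16 arrays and 0 were saturated, so each value below is a measured one. Cebpe varied most between arrays, over a range of 2.89 log2 units, followed by Cebpg (1.73), Cebpb (1.69) and Cebpd (1.34), while Cebpz (0.97) and Cebpa (0.94) stayed within a narrower band. The group a sample belonged to accounted for 66.7% of the variance of Cebpe, 62.7% of Cebpz and 56.3% of Cebpb. For Cebpa the slide accounted for 64.7% and the group for 32.4%, and for Cebpd the slide (40.8%) again stood above the group (33.2%). These shares overlap, since groups are not spread evenly over slides. Because the values come from sorted pools, fewer cells that use a gene and less RNA per cell cannot be told apart.

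**Figure D1:**
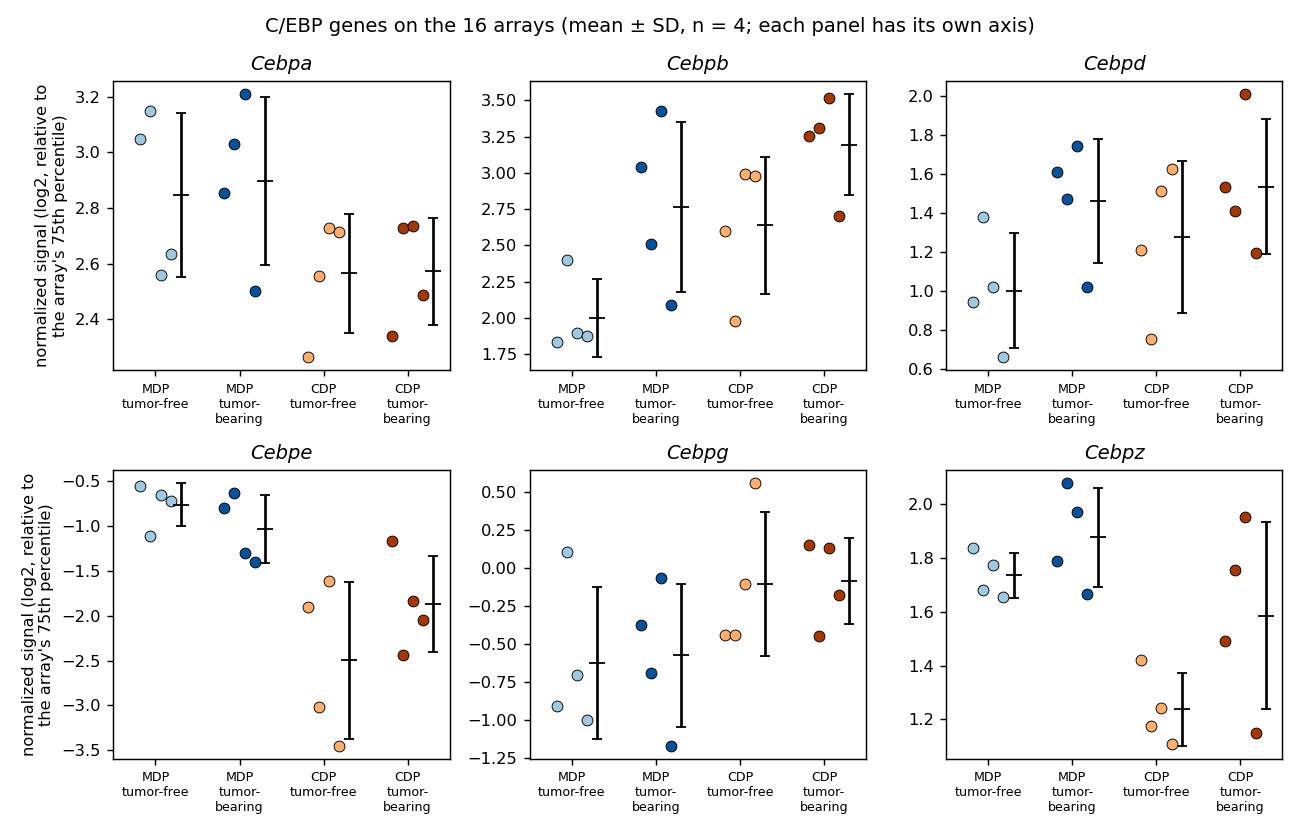
Normalized log2 signal (y axis, relative to the array's 75th percentile) of each C/EBP gene in the 4 groups (x axis); circles are arrays, and the bar beside them is the mean with its SD (n = 4). For Cebpe the 4 tumor-free CDP arrays, from -3.45 to -1.61, all sit below the 4 tumor-free MDP arrays, from -1.11 to -0.56.

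Among the members, Cebpe alone passed the test between progenitors of tumor-free mice, being 3.33-fold lower in CDPs than in MDPs. In tumor-free MDPs its normalized log2 signal was -0.56, -1.11, -0.66 and -0.72 in replicates 2 to 5. In tumor-free CDPs it was -1.91, -3.02, -1.61 and -3.45. The groups did not overlap, and the CDP arrays themselves fell into a higher pair and a lower pair more than 1 unit apart. The means were -0.76 ± 0.24 (SD, n = 4) and -2.50 ± 0.88 (SD, n = 4), a log2 difference of -1.73 with a standard error of 0.38 and a 95% interval from -2.55 to -0.92 (limma adjusted p = 0.0131; exact two-sided permutation p = 0.0286, the smallest that 4 against 4 samples allow). In this comparison 6.07% of all probes were called and 1 of 6 C/EBP probes was. The call rests on a spread shared by all 4 groups: fitted on the tumor-free groups alone, the same difference had a limma adjusted p of 0.0557.

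Tumor-bearing mice gave the same order with a smaller gap. Cebpe read -0.81, -0.63, -1.30 and -1.41 in tumor-bearing MDPs and -1.17, -2.44, -1.84 and -2.04 in tumor-bearing CDPs. The CDP array of replicate 2 lay among the MDP arrays and the other 3 lay below all of them. The difference of -0.84 (95% interval from -1.65 to -0.03) did not pass (limma adjusted p = 0.171, exact permutation p = 0.0857), in a comparison where 7.24% of all probes were called and 0 of the 6 members was. Within each slide that held both kinds of cell, Cebpe was lower in CDPs on 4 of 4 slides for tumor-free mice, with changes of -2.36 to -1.05, and on 2 of 2 slides for tumor-bearing mice (-1.21 and -0.64).

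Tumor did not move Cebpe past the test in either progenitor. In CDPs the mean was 0.63 log2 units higher in tumor-bearing mice (95% interval from -0.19 to 1.44, limma adjusted p = 0.542), and in MDPs it was lower by a change of -0.27 (from -1.08 to 0.54, adjusted p = 0.753). Both pairs of groups overlapped. The difference between both tumor changes was 0.90 with an interval from -0.25 to 2.05 (adjusted p = 0.749, limma), so the opposite signs were within the error. Within slides Cebpe was higher with tumor on 1 of 3 slides in CDPs (-0.22, -0.14 and 1.22) and on 1 of 3 in MDPs (-0.69 to 0.06), and leaving out 1 array moved the CDP change between 0.31 (without tumor-free replicate 5) and 0.92 (without tumor-free replicate 4).

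Markers of promyelocytes and of granulocyte-monocyte progenitors (GMPs) were lower in the same comparison. All 6 of them (Mpo, Elane, Prtn3, Ctsg, Ms4a3 and Prss57, genes of primary granules and of early granulocyte cells) were lower in tumor-free CDPs than in tumor-free MDPs and 4 were called, with a median of -1.35. Their summed linear level was 97.9 to 142.5 in tumor-free MDPs, 107.8 to 171.8 in tumor-bearing MDPs, 48.5 to 66.0 in tumor-free CDPs and 85.4 to 122.5 in tumor-bearing CDPs. With tumor 5 of 6 were higher in CDPs, where Elane and Ms4a3 were called, and Prss57 was lower (-0.27). Ms4a3 rose there by 2.19 (limma adjusted p = 0.00111) and kept the call when each of 8 arrays was left out in turn. In MDPs 6 of 6 were higher with tumor and 0 were called. All 6 markers were above background on all 16 arrays. Mpo, Elane, Prtn3 and Ctsg also stand in the list of C/EBPα targets given below, by the same probes. Markers of eosinophils, basophils and mast cells, of which eosinophils also use Cebpe, were tested for 6 of 8 genes (Prg2, Epx, Ear2, Mcpt8, Fcer1a and Prss34). All 6 were higher with tumor in CDPs (median 0.85) and in MDPs (median 1.03), under each scaling and with the slide as a block, and 0 were called. Their summed linear level was 3.98 to 5.25 in tumor-free MDPs, 6.09 to 9.88 in tumor-bearing MDPs, 2.71 to 3.79 in tumor-free CDPs and 4.16 to 6.29 in tumor-bearing CDPs. Prg2, Mcpt8 and Prss34 were above background on 16 of 16 arrays and Ms4a2 on 0. The part of any of these cells in the Cebpe values was not tested.

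Cebpb had the largest tumor difference of the family in MDPs, and it did not pass the test across all probes. Tumor-free MDPs read 1.83, 2.40, 1.89 and 1.88, and tumor-bearing MDPs read 3.04, 2.51, 3.42 and 2.09. Of the tumor-bearing arrays 3 of 4 lay above every tumor-free array, and replicate 5 (2.09) lay below the highest tumor-free one. The mean difference of 0.77 log2 units, or 1.70-fold, had a 95% interval from 0.12 to 1.41, an unadjusted p of 0.0231 and an adjusted p of 0.431 in the limma fit (exact permutation p = 0.0571). Of all probes 0.062% were called in this comparison, 2849 had an unadjusted p under 0.05, and 0 of 6 C/EBP probes was called. The median change of all probes was -0.12 here, which puts Cebpb 0.88 above it.

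In CDPs the tumor difference of Cebpb was of similar size. Tumor-free CDPs read 2.60, 1.98, 2.99 and 2.98, and tumor-bearing CDPs read 3.25, 3.31, 3.52 and 2.70. Again 3 of 4 tumor-bearing arrays were above all tumor-free ones, the exception being replicate 5. The change was 0.56 (95% interval from -0.09 to 1.20, limma adjusted p = 0.468, exact permutation p = 0.114), where 1.79% of all probes and 0 of 6 C/EBP probes were called. The tumor changes in CDPs and MDPs differed by -0.21 with an interval from -1.12 to 0.70 (limma adjusted p = 0.853), a comparison with 0.0146% of all probes and 0 members called.

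Within slides that held both tumor states, Cebpb was higher in the tumor-bearing sample on 3 of 3 slides for MDPs (0.22 to 0.83) and on 3 of 3 slides for CDPs (0.10 to 1.30). It was also higher in CDPs than in MDPs on 4 of 4 slides for tumor-free mice (0.09 to 1.16) and 2 of 2 slides for tumor-bearing mice (0.61 and 1.01). Over all arrays the CDP minus MDP difference was 0.64 for tumor-free mice (95% interval from -0.01 to 1.28, limma adjusted p = 0.299, exact permutation p = 0.0571) and 0.43 for tumor-bearing mice (from -0.22 to 1.07, adjusted p = 0.315). By mean level Cebpb ordered as tumor-bearing CDPs (3.20 ± 0.35, SD, n = 4), tumor-bearing MDPs (2.77 ± 0.59), tumor-free CDPs (2.64 ± 0.47) and tumor-free MDPs (2.0 ± 0.27), and each group overlapped its neighbor in that order.

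The monocyte markers Ccr2, F13a1, Cd14, Fcgr1, Ms4a6c and Klf4 had a summed linear level of 24.0 to 29.9 in tumor-free MDPs and 23.4 to 30.1 in tumor-bearing MDPs, ranges that overlap. The sums were 33.0 to 41.8 in tumor-free CDPs and 39.3 to 46.6 in tumor-bearing CDPs. Between CDPs and MDPs 2 of 6 were called higher in tumor-free mice (Ccr2 and Klf4) and 3 of 6 in tumor-bearing mice (these and Fcgr1), and with tumor 0 of 6 were called in either progenitor. All 6 were above background on all 16 arrays, and the part of such cells in the Cebpb values was not tested.

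Cebpd, the inflammatory partner of Cebpb, had its group means in the same order, and each group overlapped its neighbor. It read 0.95, 1.38, 1.02 and 0.66 in tumor-free MDPs and 1.61, 1.47, 1.74 and 1.02 in tumor-bearing MDPs. As for Cebpb, 3 of 4 tumor-bearing arrays were above all tumor-free ones and replicate 5 was not. The change of 0.46 had an interval from -0.06 to 0.97 (limma adjusted p = 0.519, exact permutation p = 0.0857), and was positive on 3 of 3 slides (0.30 to 0.53). In CDPs the levels were 1.21, 0.76, 1.51 and 1.63 without tumor and 1.53, 1.41, 2.01 and 1.20 with tumor, overlapping groups with a change of 0.26 (from -0.26 to 0.77, adjusted p = 0.738, limma) that was positive on 2 of 3 slides (-0.01 to 0.71). The differences between CDPs and MDPs were 0.27 in tumor-free mice (adjusted p = 0.746) and 0.07 in tumor-bearing mice (adjusted p = 0.838, limma).

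**Figure D2:**
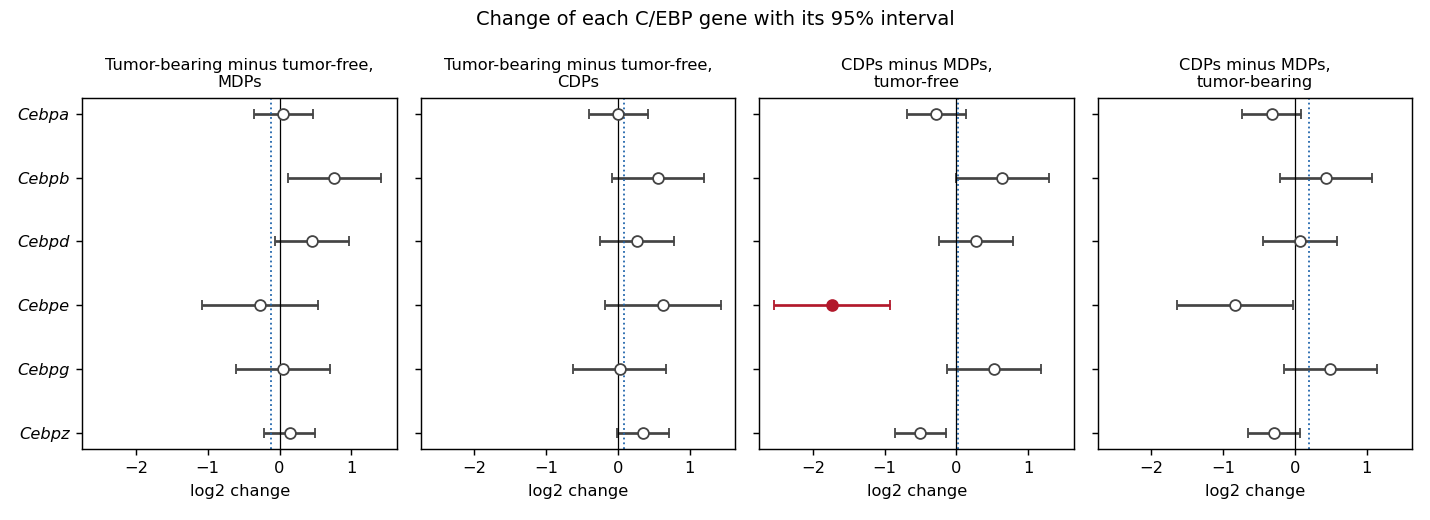
Log2 change (x axis) of each C/EBP gene (rows) in 4 comparisons, with 95% intervals from the limma fit; the filled point passed the test, open points did not, and the dotted line is the median change of all tested probes. Cebpe in tumor-free CDPs against MDPs, at -1.73, is the filled point, and the interval of Cebpb in MDPs with tumor runs from 0.12 to 1.41.

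Cebpa, which starts the granulocyte and monocyte program, differed little by tumor state. Tumor-free MDPs read 3.05, 3.15, 2.56 and 2.63, and tumor-bearing MDPs read 2.85, 3.03, 3.21 and 2.50. Tumor-free CDPs read 2.27, 2.56, 2.73 and 2.71, and tumor-bearing CDPs read 2.34, 2.73, 2.74 and 2.49. The groups interleaved in both progenitors. The tumor change was 0.05 in MDPs (95% interval from -0.36 to 0.46, adjusted p = 0.91) and 0.01 in CDPs (from -0.41 to 0.42, adjusted p = 0.993, limma). Signs this close to 0 turned with the scaling: under quantile normalization they were -0.02 and -0.16.

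Cebpa means were lower in CDPs than in MDPs by a change of -0.28 in tumor-free mice (from -0.69 to 0.13, adjusted p = 0.579) and of -0.33 in tumor-bearing mice (from -0.74 to 0.09, adjusted p = 0.248, limma). Within slides, Cebpa was lower in CDPs on 4 of 4 slides (-0.44 to -0.002) and on 2 of 2 slides (-0.29 and -0.01). By mean level its order was tumor-bearing MDPs (2.90 ± 0.30, SD, n = 4), tumor-free MDPs (2.85 ± 0.29), tumor-bearing CDPs (2.57 ± 0.19) and tumor-free CDPs (2.57 ± 0.21), and all neighbors overlapped.

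Cebpg, the partner of ATF4, read -0.91, 0.10, -0.70 and -1.0 in tumor-free MDPs and -0.37, -0.69, -0.07 and -1.17 in tumor-bearing MDPs. It read -0.44, -0.44, -0.10 and 0.56 in tumor-free CDPs and 0.15, -0.45, 0.13 and -0.18 in tumor-bearing CDPs. Levels were higher in CDPs on average, and single arrays of both progenitors overlapped. The tumor change was 0.05 in MDPs (from -0.60 to 0.70) and 0.02 in CDPs (from -0.63 to 0.67, adjusted p = 0.947 and 0.986 in the limma fit). CDPs stood above MDPs by 0.52 in tumor-free mice (adjusted p = 0.46) and 0.49 in tumor-bearing mice (adjusted p = 0.265, limma), on 4 of 4 slides (0.26 to 0.80) and 2 of 2 slides (0.83 and 0.99). With the slide as a block, the tumor-bearing difference was 0.93 and passed (limma adjusted p = 0.0074), while the tumor-free one, at 0.52 with an adjusted p of 0.0332, lay under the fold limit.

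Cebpz had the smallest SD of the family in 3 of the 4 groups, the exception being tumor-bearing CDPs. It read 1.84, 1.68, 1.77 and 1.66 in tumor-free MDPs and 1.42, 1.18, 1.24 and 1.11 in tumor-free CDPs. Those groups did not overlap, and the change was -0.50 (95% interval from -0.86 to -0.14, exact permutation p = 0.0286) with a limma adjusted p of 0.107. In this comparison 6.07% of all probes were called, and 4683 of 27433 had an unadjusted limma p under 0.05. The share of all probes without an overlap was not counted. Tumor-bearing MDPs read 1.79, 2.08, 1.97 and 1.67, and tumor-bearing CDPs read 1.49, 1.75, 1.95 and 1.15, which overlap (change -0.29, adjusted p = 0.242, limma).

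In CDPs the mean of Cebpz was 0.35 higher with tumor (from -0.01 to 0.71, limma adjusted p = 0.388), with 3 of 4 tumor-bearing arrays above all tumor-free ones and replicate 5 among them. In MDPs the change was 0.14 (from -0.22 to 0.50, adjusted p = 0.72, limma). Within slides it was higher with tumor on 2 of 3 slides in CDPs (-0.27 to 0.71) and 3 of 3 in MDPs (0.01 to 0.24). Cebpz was lower in CDPs than in MDPs on 4 of 4 slides for tumor-free mice (-0.60 to -0.24) and 2 of 2 slides for tumor-bearing mice (-0.52 and -0.13).

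The difference between both probes of 1 array does not depend on how arrays are scaled to each other. The size of such a difference mixes RNA level with probe brightness, and its change between groups is the readable part. Cebpb minus Cebpa was -1.22, -0.75, -0.67 and -0.76 in tumor-free MDPs, replicates 2 to 5, and 0.19, -0.52, 0.21 and -0.41 in tumor-bearing MDPs. It was 0.34, -0.57, 0.26 and 0.26 in tumor-free CDPs and 0.91, 0.58, 0.78 and 0.22 in tumor-bearing CDPs. All tumor-bearing MDP arrays lay above all tumor-free MDP arrays, with a change of 0.71 in the means. CDPs lay above MDPs without overlap in tumor-free mice (change 0.92). In tumor-bearing mice the change was 0.75 and the nearest arrays were 0.214 and 0.215, and these groups overlapped after another background correction (normexp). The tumor-bearing and tumor-free CDP groups overlapped, with a change of 0.55. Between tumor states in MDPs, Cebpd minus Cebpa overlapped (lowest tumor-bearing -1.56, highest tumor-free -1.54). So did Cebpb minus Irf8 (-2.33 and -1.355) and Cebpe minus Cebpa. For Cebpb minus Cebpa, the 2 highest tumor-bearing MDP arrays (0.19 and 0.21) shared slide 1, and slide 4 held 0 tumor-bearing MDP arrays. Its tumor changes in MDPs within slides 1, 2 and 3 were 0.95, 0.70 and 0.35. No test was run on these differences.

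Cebpe minus Irf8 sets the granulocyte factor beside the factor that directs progenitors to monocytes and dendritic cells. It was -4.71, -4.87, -5.08 and -4.82 in tumor-free MDPs and -6.45, -7.68, -5.99 and -7.18 in tumor-free CDPs, groups that did not overlap and whose means differed by -1.96. Tumor-bearing MDPs had -4.46, -4.83, -4.94 and -5.83, and tumor-bearing CDPs had -5.54, -6.99, -5.91 and -6.27, with an overlap and a change of -1.16. Irf8 itself had a tumor change of -0.13 in MDPs (adjusted p = 0.813) and -0.02 in CDPs (adjusted p = 0.979), and its CDP minus MDP differences were 0.22 (adjusted p = 0.846) and 0.33 (adjusted p = 0.33, limma).

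**Figure D3:**
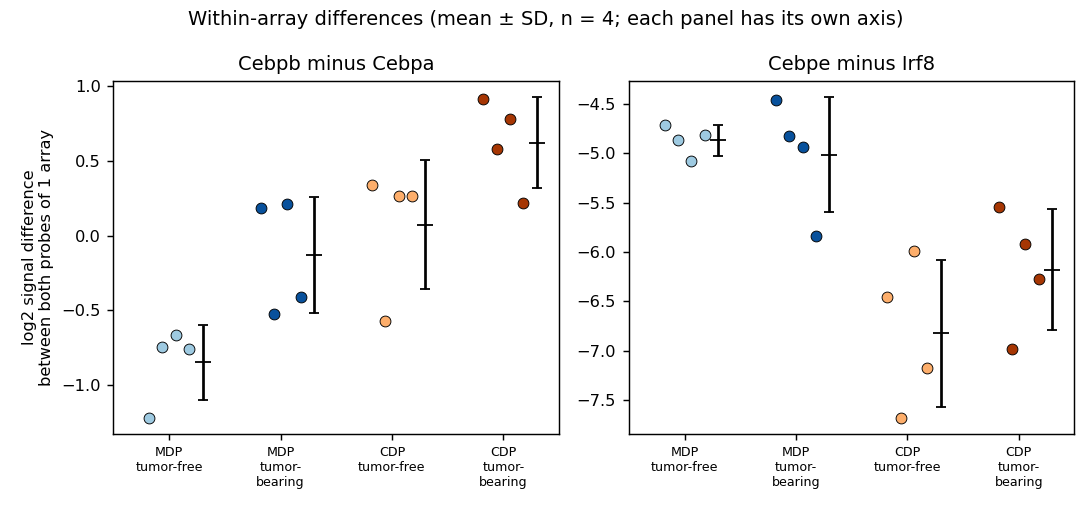
Log2 signal difference between both probes of 1 array (y axis) in the 4 groups (x axis), for Cebpb minus Cebpa and Cebpe minus Irf8; circles are arrays, and the bar is the mean with its SD (n = 4). The 4 tumor-free MDP arrays are lowest for Cebpb minus Cebpa (-1.22 to -0.67), and the tumor-free CDP arrays (-7.68 to -5.99) all lie below both MDP groups for Cebpe minus Irf8.

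Genes around the family were read from 7 lists of partners, inputs and targets, with 1 probe for each gene. The lists were written from general knowledge with earlier results of these data known, so their counts and medians are descriptions. Of the genes of all lists, 12 were called with tumor in CDPs and 2 in MDPs, and 22 and 21 between CDPs and MDPs in tumor-free and tumor-bearing mice. The lists held 12 to 21 tested genes each, and a share over all lists was not computed. Over all 20246 genes the shares called were 1.81% and 0.0741% with tumor in CDPs and MDPs, and 6.22% and 7.3% between CDPs and MDPs. For the difference of the tumor changes 0 list genes were called, so no list gene was shown to respond otherwise in CDPs than in MDPs. The MDP and CDP markers, lower with tumor as given above, had a summed linear level of 38.0 to 42.1 in tumor-free and 27.6 to 32.0 in tumor-bearing CDPs, and their part in the list changes with tumor was not tested. Several genes stand in more than 1 list, among them Lcn2, Socs3, Lyz2, Csf3r and Ddit3. Calls were refitted without each of the 8 arrays of a comparison, a check chosen after the data were seen.

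Targets of C/EBPβ and C/EBPδ, genes of the inflammatory response, were higher with tumor in CDPs for 12 of 15 members tested, 5 of them called, and their median change was 0.96 against 0.09 for all genes. Il1r2, the decoy receptor of interleukin-1, read -3.25, -4.14, -4.46 and -2.10 in tumor-free CDPs and 0.26, 1.77, 0.57 and 1.80 in tumor-bearing CDPs, a change of 4.59 (SE 0.71, adjusted p = 0.00637, limma). The groups were more than 2 units apart. Socs3, the feedback inhibitor of STAT3 signaling, rose by 3.38 (adjusted p = 0.00841) from -2.77, -2.75, -2.96 and -1.78 to 0.92, 1.21, 1.62 and -0.47. Lcn2, an iron-scavenging granule protein, rose by 2.70 (adjusted p = 0.00195, limma). Clec4e, a receptor for mycobacterial glycolipid, was not well above background on any tumor-free CDP array and was at least 15.5-fold higher with tumor (adjusted p = 0.000112). Hp, or haptoglobin, rose by 1.13 (adjusted p = 0.0262), a call lost without tumor-free replicate 2, 3 or 5 or tumor-bearing replicate 3 or 4. The other 4 called genes kept the call in 8 of 8 refits.

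In MDPs the same list had 7 of 15 members higher with tumor and a median of -0.30 against -0.12 for all genes, and 1 was called, while the median was -0.06 under quantile normalization and 0.09 with the slide as a block. The called gene was Lcn2, which rose by 2.17 (limma adjusted p = 0.0493) from 1.24, 0.51, 1.16 and 0.42 to 2.48, 3.63, 3.28 and 2.61, and whose call held only without tumor-bearing replicate 5. The tumor changes in CDPs and MDPs differed by 2.99 for Il1r2 (adjusted p = 0.749), 2.64 for Socs3 (adjusted p = 0.749) and 3.53 for Clec4e (adjusted p = 0.104, limma), all short of the test. Between progenitors of tumor-free mice 13 of 15 members were lower in CDPs, and Clec4e was called, at least 6.11-fold lower (adjusted p = 3e-04, limma). In tumor-bearing mice 15 of 15 were higher in CDPs (median 0.67), while 12 of 15 were under quantile normalization (0.24) and 13 of 15 with the slide as a block (0.47). Il1r2 was called there (2.62, adjusted p = 0.0381, limma), a call that held only without tumor-bearing MDP replicate 3 or CDP replicate 4 and was lost with the slide block.

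Targets of C/EBPα in early granulocyte formation were higher with tumor in CDPs for 13 of 13 members tested, with a median change of 0.45, and 2 were called, while under quantile normalization 10 of 13 were higher (median 0.32) and with the slide as a block 11 of 13 (median 0.35). Gfi1, a repressor that turns progenitors to the neutrophil path, read -3.28, -3.49, -3.81 and -2.47 in tumor-free CDPs and -1.20, -0.96, -1.06 and -2.89 in tumor-bearing CDPs. Of the latter 3 of 4 stood above all tumor-free arrays and replicate 5 stood among them, and the change of 1.73 had an adjusted p of 0.0383 (limma). Elane, the neutrophil elastase gene, read 3.08, 2.64, 3.35 and 2.86 without tumor and 4.0, 4.56, 3.95 and 3.88 with tumor, a change of 1.12 (adjusted p = 0.0227). The Gfi1 call held in 2 of 8 refits (without tumor-free replicate 5 or tumor-bearing replicate 5) and the Elane call in 3 of 8 (without tumor-free replicate 4 or tumor-bearing replicate 2 or 5). In MDPs 8 of 13 members were higher with tumor and 0 were called.

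Between tumor-free CDPs and MDPs this list split. Gfi1 was 21.3-fold lower in CDPs (log2 change -4.42, SE 0.39, adjusted p = 1.52e-05), Elane was 3.60-fold lower (adjusted p = 0.000216, limma), and Prtn3, proteinase 3, was 1.80-fold lower (adjusted p = 0.0206). Cebpe, which is itself a member of the list, was the remaining gene called lower. Lyz2, the lysozyme of macrophages and neutrophils, was 4.89-fold higher in CDPs (adjusted p = 0.000302, limma). In MDPs Gfi1 read 1.26, 1.41, 0.95 and 0.99 without tumor and 1.45, 1.39, 1.76 and 0.94 with tumor, so that all 8 MDP arrays lay above all 8 CDP arrays. The Prtn3 call was lost without tumor-free MDP replicate 2, 4 or 5 or tumor-free CDP replicate 3 or 5.

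The list of C/EBPε targets holds mostly genes of secondary and tertiary granules, and not all of its members are granule contents. Of 12 members tested 10 were higher in tumor-free CDPs than in MDPs, where Cebpe itself was lower, with a median of 0.66 against 0.02 for all genes, and 3 were called. Mmp25, counted among the 10, was well above background on 1 tumor-free and 0 tumor-bearing MDP arrays, and on 3 and 4 CDP arrays. It met the filter only through CDPs, where it was high, so its direction between progenitors carries no weight. Chil3, a chitinase-like protein, was 8.84-fold higher in CDPs (log2 change 3.14, adjusted p = 0.00207, limma), and it read -1.21, -1.15, -0.57 and -2.56 in tumor-free MDPs against 2.93, 0.88, 2.02 and 1.27 in tumor-free CDPs. Lyz2 is the next, given above, and Mmp8, neutrophil collagenase, was 1.95-fold higher (adjusted p = 0.0453), a call that held only without CDP replicate 5. Ltf (0.51), Camp (0.66) and Ngp (0.245) were higher in tumor-free CDPs and not called. With tumor 8 of 12 members were higher in CDPs (median 0.65) and 5 of 12 in MDPs (median -0.105). Under quantile normalization 8 of 12 were higher in both. In CDPs Ltf (-0.45), Camp (-0.65), Ngp (-0.25) and Olfm4 (-0.30) were lower with tumor, and 0 members were called lower. Mmp8 rose by 1.87 in CDPs with tumor (adjusted p = 0.00362, limma) beside Lcn2. In MDPs Chil3 rose by 3.21 (adjusted p = 0.0493, limma) to 2.17, 2.51, 1.96 and 0.72, and lost the call in 7 of 8 refits. Between tumor-bearing CDPs and MDPs 10 of 12 members were higher in CDPs, with a median of 1.46 (1.05 under quantile normalization). Mmp8, Chil3, Fcnb, Lyz2 and Mmp25 were called there, and Chil3 and Fcnb lost the call with the slide as a block.

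Neutrophil markers were also read in the 4 groups. Their summed linear level over 9 genes was 1.85 to 3.44 in tumor-free MDPs, 3.75 to 6.38 in tumor-bearing MDPs, 2.92 to 8.29 in tumor-free CDPs and 8.12 to 13.5 in tumor-bearing CDPs. Of these genes 7 of 9 were higher with tumor in CDPs, 1 of them called (Mmp8), and 4 of 9 in MDPs with 0 called, which was 6 of 9 in MDPs under quantile normalization or with the slide as a block, and 5 of 9 in CDPs with that block. S100a8 was above background on 16 of 16 arrays, and Stfa2 on 1 of 16. Mmp8, Ltf and Cd177 also stand in the C/EBPε list, and Il1b, S100a8 and S100a9 in the list of C/EBPβ and C/EBPδ targets. The marker sums thus share probes with those lists and are not a separate reading. The part of contaminating neutrophils or their RNA in the granule and inflammatory genes was not tested.

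The next list holds signaling genes that feed the family through granulocyte colony-stimulating factor (G-CSF) and interleukin-6 to STAT3. It holds receptor chains, among them those of GM-CSF, kinases, Stat3, inhibitors and phosphatases. In tumor-free mice 12 of 13 members were higher in CDPs than in MDPs, with a median of 0.48 and 3 called. These were Jak2, a receptor kinase (change 1.09, adjusted p = 0.00129), Csf2ra, the binding chain of the GM-CSF receptor (0.80, adjusted p = 0.00566), and Ptpn6, a phosphatase of cytokine receptors (0.62, adjusted p = 0.0274, limma). The first and second kept the call in every refit, and Ptpn6 lost it without MDP replicate 2 or 3 or CDP replicate 2, 3 or 4. With tumor the median was -0.003 in CDPs and -0.07 in MDPs (-0.19 and 0.01 under quantile normalization), and Socs3 in CDPs was the only call. Csf3r, the G-CSF receptor, had a tumor change of 0.13 in CDPs (limma adjusted p = 0.87), and in MDPs the change was -0.26 (limma adjusted p = 0.669).

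Of 21 dimer partners and regulators of C/EBPs, Fos was called with tumor in CDPs, and 0 in MDPs. Fos, the bZIP subunit of AP-1, read -2.71, -1.98, -2.07 and -1.90 in tumor-free CDPs and -0.95, -0.65, -1.08 and -0.84 in tumor-bearing CDPs, groups without overlap and a change of 1.28 (SE 0.21, adjusted p = 0.00739, limma). In MDPs its change was -0.15 (adjusted p = 0.752), and the difference of both changes was 1.43 (adjusted p = 0.417, limma). Between tumor-bearing CDPs and MDPs, Fos (1.49, adjusted p = 0.000565) and Fosl2 (1.29, adjusted p = 0.0353, limma) were called higher in CDPs. The Fosl2 call held in 3 of 8 refits. Calr, which binds the Cebpa and Cebpb messages, was lower in CDPs than in MDPs, with changes of -1.03 without tumor (adjusted p = 0.000426) and -0.74 with tumor (adjusted p = 0.00412). Myb, a progenitor factor that acts with C/EBPs on granule genes, was also lower, with changes of -0.92 (adjusted p = 0.00482) and -1.30 (adjusted p = 0.000383, limma).

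The amino acid and stress response genes that ATF4, CHOP and C/EBPγ share were higher with tumor in CDPs for 13 of 16 members tested, with a median of 0.52 and 3 called. Chac1, counted among the 13, was well above background on 0 tumor-free and 3 tumor-bearing CDP arrays. It met the filter only through tumor-bearing CDPs, so its direction carries no weight. Asns, asparagine synthetase, read -2.43, -1.99, -2.21 and -4.63 in tumor-free CDPs and -0.24, 0.20, 0.27 and -0.24 in tumor-bearing CDPs, a change of 2.81 (SE 0.45, adjusted p = 0.00816, limma) that was called in 8 of 8 refits. Phgdh and Shmt2, enzymes of serine and one-carbon metabolism, rose by 0.88 (adjusted p = 0.0253) and 0.80 (adjusted p = 0.0262, limma), and were called in 3 and 2 of 8 refits. Both lost the call without tumor-free replicate 2, 3 or 5 or tumor-bearing replicate 3 or 4, and Shmt2 also without tumor-free replicate 4. In MDPs 12 of 16 members of the list were also higher with tumor and 0 were called. Their median was 0.28 against -0.12 for all genes, and 0.35 with the slide as a block. In tumor-free mice Asns was lower in CDPs than in MDPs (-2.73, adjusted p = 0.00226), as was Phgdh (-1.30, adjusted p = 0.000608, limma). Cebpg itself stood higher in CDPs on average and had tumor changes near 0. Atf4 had a tumor change of 0.57 in CDPs (adjusted p = 0.292) and Ddit3, which encodes CHOP, of -0.22 (adjusted p = 0.828, limma).

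Nucleolar partners of CEBPZ, factors of ribosome assembly, showed small differences of like sign. In tumor-free mice 17 of 18 were lower in CDPs than in MDPs, with a median of -0.64 and 5 called, and in tumor-bearing mice 16 of 18 were lower, with a median of -0.52 and 4 called. Wdr12, a subunit of the PeBoW complex, had changes of -1.19 (adjusted p = 0.00144) and -1.06 (adjusted p = 0.00317, limma). Ncl, nucleolin, had changes of -0.79 (adjusted p = 0.00643) and -0.65 (adjusted p = 0.0202, limma), the latter lost without tumor-bearing MDP replicate 4 or CDP replicate 2, 3 or 5. Of the 4 calls in tumor-bearing mice, Wdr12 alone held in 8 of 8 refits, against 3 of 5 (Wdr12, Ncl and Nop16) in tumor-free mice. With tumor 17 of 18 were higher in CDPs (median 0.45, and 16 of 18 under quantile normalization) and 17 of 18 in MDPs (median 0.30), and 0 were called in either.

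**Figure D4:**
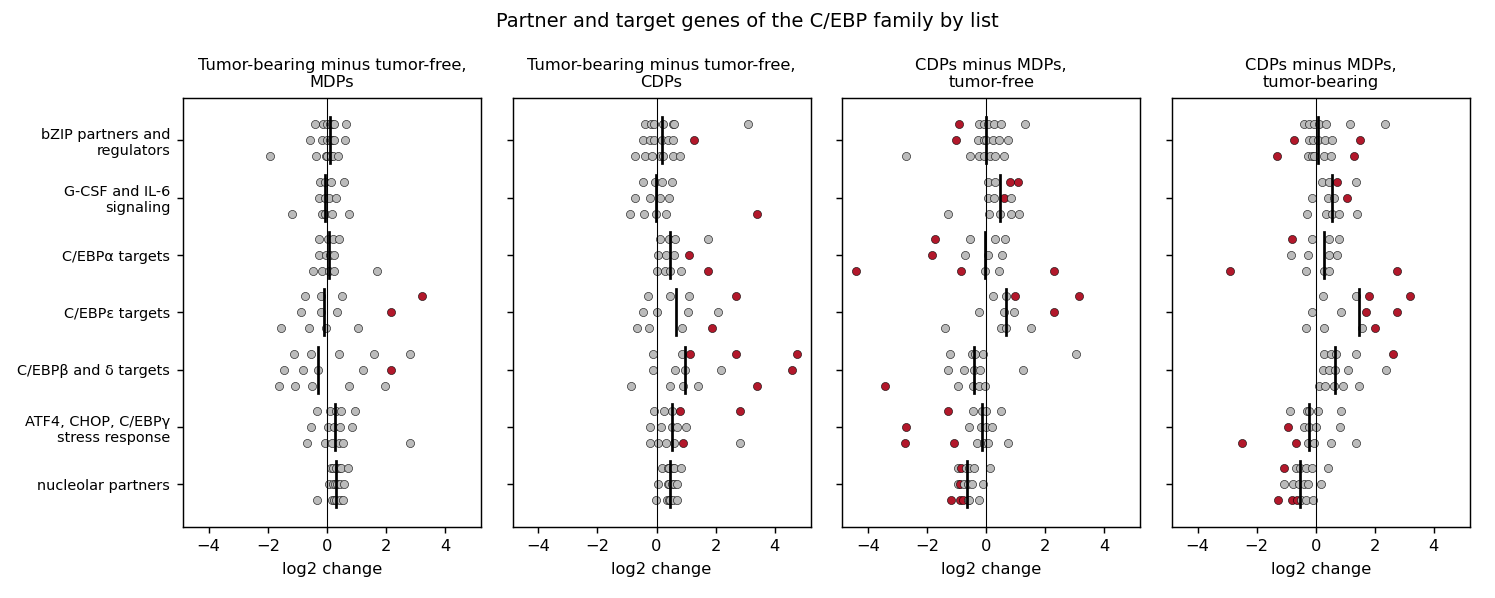
Log2 change (x axis) of every tested gene of 7 lists (rows) in 4 comparisons; circles are genes, filled red where the gene passed the test and gray where it did not, and the black bar is the median of the list. Targets of C/EBPβ and δ have their median at 0.96 with tumor in CDPs and at -0.30 in MDPs, and the nucleolar partners at -0.64 in tumor-free CDPs against MDPs.

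Across the 16 arrays Cebpb and Cebpd had the closest patterns within the family, with a Pearson r of 0.90. It was 0.94 after slide effects, fitted together with the groups, were subtracted, and 0.75 after slide and group effects were subtracted. Arrays share slides and groups, so these are descriptions without a test. Cebpg correlated with Cebpb at 0.70 and with Cebpd at 0.71, and Cebpe with Cebpz at 0.68. After slide and group effects were subtracted the values were 0.18, 0.52 and 0.04. Cebpa correlated at 0.09 with Cebpb and 0.32 with Cebpe.

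Each member was also compared with 20145 other genes over the 16 arrays. The genes most like Cebpb were Ccne1 (cyclin E1), Bcl3 (an NF-κB cofactor) and Cltb (a clathrin light chain), with r of 0.943, 0.941 and 0.933. Those most like Cebpd were Nsf (0.959), Cebpb (0.90) and Zdhhc21 (0.899). Those most like Cebpe were Ninj1 (0.928), Svip (0.906) and Sord (0.891). For Cebpz they were Srm (spermidine synthase, 0.967), Ctps (CTP synthase, 0.96) and Rrs1 (0.957), and Rrs1 also stood in the nucleolar list. For Cebpa they were B3galnt2 (0.886), Slc5a6 (0.883) and Slc7a6 (0.88), and for Cebpg Creb3 (0.911), a transcript named ENSMUST00000073088 (0.899) and Ubash3b (0.892). After slide effects were subtracted 0 of the 3 genes named for Cebpa, Cebpb, Cebpd, Cebpg and Cebpz stayed among the nearest 3.

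**Figure D5:**
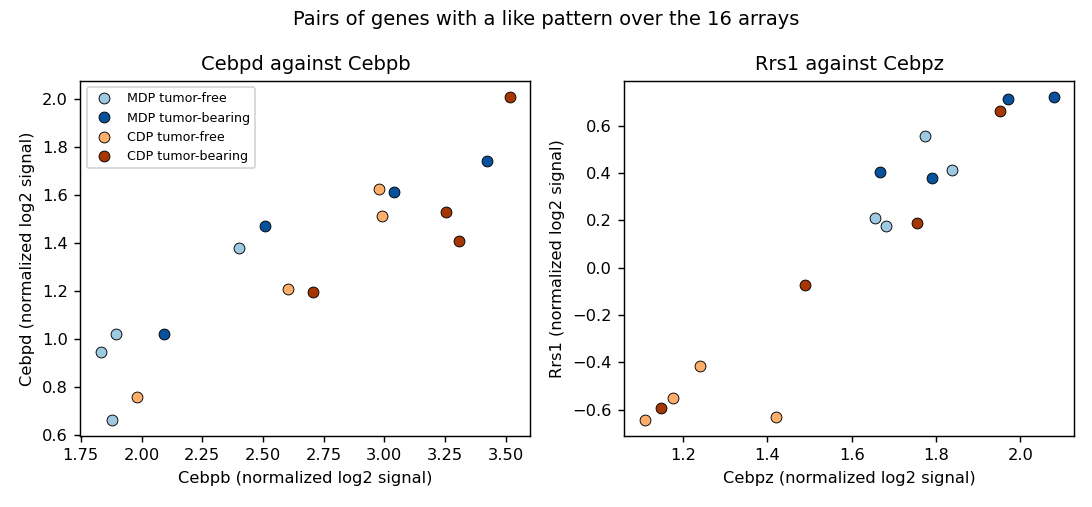
Normalized log2 signal of Cebpd against Cebpb and of Rrs1 against Cebpz; each circle is 1 of 16 arrays, colored by group. The Pearson r is 0.90 for Cebpb with Cebpd and 0.957 for Cebpz with Rrs1.

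The promoters of Cebpa and Cebpb, the pair whose difference within an array separated tumor-free from tumor-bearing MDPs, are shown as 300 bases of RefSeq sequence (build GRCm38.p6) around the transcript start, most of them before it. Both were searched on both strands for TTGCNNAA (a C/EBP site), TTGCG (a C/EBP half-site), TGACG (a cyclic AMP response half-site), TATAAA and CCAAT, and capitals mark the matches. Of 32851 promoters of this length 10.8%, 17.4%, 20.8%, 13.6% and 37.4% hold these motifs. The Cebpa promoter lies at chr7:35119043-35119342 (plus strand) and the Cebpb promoter at chr2:167688665-167688964 (plus strand).
Cebpa: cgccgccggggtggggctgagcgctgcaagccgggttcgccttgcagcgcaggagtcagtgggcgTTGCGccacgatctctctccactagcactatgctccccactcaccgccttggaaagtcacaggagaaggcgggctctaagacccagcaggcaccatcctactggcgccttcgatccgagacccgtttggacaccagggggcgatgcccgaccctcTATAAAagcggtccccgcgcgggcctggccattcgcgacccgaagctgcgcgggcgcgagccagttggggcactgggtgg
Cebpb: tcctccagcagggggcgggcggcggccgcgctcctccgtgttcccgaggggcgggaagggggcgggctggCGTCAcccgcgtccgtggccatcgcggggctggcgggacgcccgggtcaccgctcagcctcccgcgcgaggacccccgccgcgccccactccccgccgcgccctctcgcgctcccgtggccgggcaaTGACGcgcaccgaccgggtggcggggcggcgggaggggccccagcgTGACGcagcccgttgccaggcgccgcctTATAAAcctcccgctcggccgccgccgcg
The Cebpa window has a GC content of 67.3% and holds TTGCG 185 bases and TATAAA 30 bases before the start. The Cebpb window has a GC content of 80.7% and holds TGACG 3 times, at 180, 53 and 7 bases before the start, and TATAAA 22 bases after it. Neither window holds TTGCNNAA or CCAAT. A match is a run of letters and was not tested as a site.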

How the data were processed

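RNA of 16 sorted samples (4 groups of 4) was hybridized to one-color Agilent arrays. The authors deposited a spot table for each array from Agilent Feature Extraction 11.5.1.1, with a processed intensity that was background-subtracted and not scaled between arrays, the raw mean and background intensity, and 0/1 flags for background, saturation and outliers (182 to 289 outlier spots per array, left out). The authors also deposited a table of log2 values, used only as an alternative. The submitters' processing notes name limma, and its version is not given in the sources used here. Symbols and mm9 positions are those of the spot tables.

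From these, the log2 processed signal minus each array's 75th percentile was computed. A probe was tested if 3 or more arrays of any group had it well above background, which kept 27433 of 39429. The limma 3.58.1 package (R 4.3.3) estimated 4 group means over 16 arrays, a fit tested on simulated data. A call needs an adjusted p under 0.05 over all tested probes and a fold change above 1.5. The limma fit's intervals are at 95%. The exact two-sided permutation tests of 4 against 4 samples use 70 relabelings, so that 0.0286 is the smallest p, and 24 of them were run and not adjusted. The design text speaks of 4 independent experiments without tying samples to them, so p-values measure the spread between these samples, and the number of arrays limits the precision. Comparisons are tumor-bearing against tumor-free in CDPs and MDPs, their difference, and CDPs against MDPs in each tumor state. They share groups, and their p-values are not independent. Bound folds of genes not well above background in a group are computed against, on each array, the higher of the probe's own signal and the lowest signal well above background.

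Members, lists and tests were chosen with earlier results of these data known. Named genes are all 6 members, list genes called in a comparison, the 3 genes most correlated with each member, Irf8 and markers. List genes were limited to 5 per list and comparison, by the probe with the highest mean. Not every call is described, and Slc7a5, Vegfa, Noc4l and Nop58 were called between progenitors and left out. Some marker genes are not reported here. Atf4, Ddit3 and Csf3r were named after their values were seen. Alternatives were other background corrections, scalings, filters, thresholds, the deposited table, slide or replicate blocks, fits on the compared groups, the methods' t-test and leaving out each array. Calls and medians of the lists under left-out arrays, scalings and the slide block were added after the data were seen. Figures were drawn with matplotlib 3.10.9 in Python 3.11.15.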

Additional observations from a re-analysis of the deposited data

Results flagged for a closer look

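Of 44 groups of 4 arrays checked for a lone sample (6 genes and 5 within-array differences), 3 stood out by the gap to the nearest array over the group's range, and chance flags about 1 in 20 groups. Cebpb in tumor-free MDPs had a gap of 0.891 of the range, with replicate 3 at 2.40 and the others from 1.83 to 1.89. Cebpb minus Cebpa in tumor-free MDPs had a gap of 0.833 of the range, with replicate 2 at -1.22 and the others from -0.76 to -0.67. Cebpb minus Cebpa in tumor-free CDPs had a gap of 0.921 of the range, with replicate 3 at -0.57 and the others from 0.26 to 0.34. All 3 are tumor-free groups and all involve Cebpb.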

How the results depend on the processing

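The Cebpe difference between tumor-free CDPs and MDPs was called under every background correction, scaling, filter and block tried and without each array (-2.03 to -1.42, limma adjusted p 0.00682 to 0.0446), and its C/EBP count fell to 0 in the limma fit of the compared groups alone (-1.73, adjusted p 0.0557) and with the methods' t-test after Benjamini-Hochberg adjustment (-1.73, adjusted p 0.0984). In tumor-bearing mice 1 member was called with the slide as a block (Cebpg, 0.93) and 1 with the methods' t-test at its unadjusted threshold (Cebpe, -0.84). Signs turned only where no call was made. The Cebpg tumor change in MDPs was -0.12 with normexp and -0.17 with the slide block, and its difference of tumor changes 0.25 and 0.41. The Cebpa tumor change was -0.16 in CDPs under quantile normalization and in the deposited table, and in MDPs -0.016 and -0.021 under these and -0.039 with the slide block. With the slide block the differences of tumor changes were 0.14 (Cebpa), 0.17 (Cebpb) and 0.10 (Cebpd). Leaving out each array gave, for Cebpa, -0.052 to 0.183 (tumor in MDPs), -0.093 to 0.085 (tumor in CDPs) and -0.176 to 0.059 (their difference), for Cebpg -0.12 to 0.29, -0.09 to 0.24 and -0.27 to 0.19, for the Cebpb difference -0.433 to 0.011, and for Cebpd between tumor-bearing CDPs and MDPs -0.083 to 0.188. The slide block gave 20, 1, 35 and 16 calls over the lists (tumor in CDPs, tumor in MDPs, tumor-free and tumor-bearing progenitors). Of the 12, 2, 22 and 21 list genes called with tumor in CDPs and MDPs and between tumor-free and tumor-bearing progenitors, 12, 1, 22 and 15 kept the call with that block and 7, 0, 15 and 9 without each array in turn.

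Replicate numbers showed no clear pairing of the samples, and 4 samples per group cannot exclude one. Correlations of same-numbered deviations between tumor states were 0.02 to 0.48 in CDPs and -0.56 to 0.44 in MDPs. Between CDPs and MDPs they were -0.63 to 0.07 in tumor-free and -0.05 to 0.46 in tumor-bearing mice. As a replicate block the replicate numbers left the C/EBP calls at 0, 0, 0, 1 and 0. This block gave 1 list call with tumor in MDPs and 10 and 371 list and probe calls with tumor in CDPs.

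Over all probes the count called with tumor in CDPs was 491 against 1251 with the slide block, 55 with only the compared groups, 861 at an adjusted p of 0.10, 2072 with the unadjusted t-test and 3 with the adjusted one. In MDPs these were 17 against 45, 5, 38, 1016 and 1, and 7 to 11 with normexp, quantile normalization, the deposited table and stricter or no filters, or 10 with the replicate block. For the difference they were 4 against 2 with the slide block, 8 at 0.10, 1 with probes above background on all arrays, and 0 with normexp, quantile normalization and the deposited table. Between progenitors they were 1665 and 1986 against 2923 and 1724 with the slide block, 1374 and 793 with only the compared groups, 2187 and 3176 at 0.10, and 2995 and 4122 or 1271 and 587 with the t-test. Leaving out 1 array gave 153 (without tumor-bearing replicate 4) to 578 calls with tumor in CDPs, with 153 to 325 without any array other than tumor-bearing replicate 5, and 1 (without tumor-bearing replicate 4) to 43 (without tumor-bearing replicate 5) in MDPs, where removing tumor-free replicate 3 alone left 17. It gave 3 to 7 for the difference (7 without tumor-free MDP replicate 3, tumor-free CDP replicate 4 or 5 or tumor-bearing CDP replicate 5), 1116 to 1494 between tumor-free progenitors, and 1126 (without CDP replicate 2) to 3276 (without MDP replicate 5) between tumor-bearing ones, also 1290, 1199 and 1283 without MDP replicate 2, MDP replicate 4 and CDP replicate 5. Only the Cebpe call among C/EBP genes was present in these refits.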
